A study of Homo sapiens with 8 samples.

Results

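The response to silencing of CSE1L was compared between SK-OV-3 and TOV-21G, which are established human ovarian carcinoma lines. For each gene the log2 change in a line was the mean of its silenced arrays minus the mean of its control arrays. The SK-OV-3 change was subtracted from that in TOV-21G, and the result, called the difference below, is negative where TOV-21G gave the lower or more negative response. All 8 arrays of the series entered it, and 9377 genes and unnamed probes were tested. Of these, 53 (0.565%) lay on opposite sides of control in the lines, 262 (2.79%) moved in TOV-21G with little movement in SK-OV-3, and 63 (0.672%) moved in SK-OV-3 with little movement in TOV-21G.

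CSE1L, also called CAS, is the export receptor that carries importin alpha back to the cytoplasm after it has released its cargo in the nucleus, and without this recycling the classical import of proteins fails. It was first described as the human counterpart of a yeast chromosome segregation gene, and it is abundant in proliferating cells and in many ovarian carcinomas. Since transcription factors, cell cycle regulators and DNA replication proteins reach the nucleus by this route, many pathways depend on it.

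Both lines received either CSE1L siRNA or a scrambled siRNA as control, and total RNA was taken after 72 h and hybridised as biotin-labelled cRNA to Illumina bead arrays. There were 4 groups of 2 arrays, 1 array from each of experiments 1 and 2. The labels say nothing more about the replicates and do not name the siRNA sequences, so the p-values cover only the spread from array to array, which may be technical. A probe counted as detected on an array when its detection p-value, its rank against negative control beads, was below 0.01, and 9206 to 9820 of 24531 probes per array were. Markers of the lines were checked by mean log2 intensity. ERBB2, the receptor kinase gene amplified in SK-OV-3, was 15.15 in SK-OV-3 control and 11.73 in TOV-21G control. GPX3, a marker of clear cell carcinoma, was undetected in SK-OV-3 and at 8.49 in TOV-21G control. In the same order, PGAP3 of the ERBB2 amplicon was 11.23 and 7.09, and the clear cell marker SPP1 12.64 and 14.69. GRB7 of the amplicon did not separate the lines by its means of 9.09 and 9.02. Its SK-OV-3 control arrays were far apart, at 7.89 and 10.29, on either side of TOV-21G control at 8.89 and 9.14. The clear cell marker TFPI2 was undetected in both controls. Of the amplicon markers 5 of 7, and of the clear cell markers 4 of 8, passed the detection filter. Among markers of other cells, 2 of 10 leukocyte, 2 of 8 fibroblast and 0 of 6 endothelial genes passed the detection filter.

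CSE1L itself was lower in both lines. On the log2 intensity scale it was 12.04 and 12.56 on the SK-OV-3 control arrays and 10.51 and 8.98 on the silenced arrays. In TOV-21G it was 13.02 and 11.65 in control and 8.80 and 7.72 after silencing. Silenced and control arrays were apart in each line, and the silenced TOV-21G arrays lay below both silenced SK-OV-3 arrays. CSE1L fell by 4.08 in TOV-21G (limma adjusted p = 0.0257), whereas the SK-OV-3 value of -2.55 did not pass (limma adjusted p = 0.262). The difference was -1.53 (SE 0.89, limma adjusted p = 0.62), being -2.70 in experiment 1 and -0.35 in experiment 2. It was -0.84 without TOV-21G control replicate 1, the array with the highest CSE1L level, -0.99 without TOV-21G silenced replicate 2 and -0.76 without SK-OV-3 silenced replicate 1. The depth of silencing therefore leaned towards TOV-21G by an amount within the spread between arrays, and the part of this in the differences that follow was not tested.

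No gene passed in the difference itself: limma called 0 of 9377 at an adjusted p under 0.05, with the smallest adjusted p at 0.165. At an unadjusted p under 0.05 there were 948 (10.1% of genes tested), where 469 would be expected with no difference in any gene. Of these, 401 (4.28%) had a positive difference and 547 (5.83%) a negative one. Within the lines, 195 genes fell in TOV-21G (2.08%) and 102 rose there (1.09%), whereas 1 rose in SK-OV-3 (0.0107%), the Ras association domain gene RASSF1. The difference of RASSF1 between the lines did not reach an unadjusted p under 0.05. The classes and lists below are therefore descriptions of values, and a gene is said to have risen or fallen only where its own line passed. Leaving out 1 of the TOV-21G arrays left few calls in that line: 0 without control replicate 1, 1 without control replicate 2, 146 without silenced replicate 1 and 0 without silenced replicate 2, with 1239 to 1787 genes at an unadjusted p under 0.05. Each TOV-21G call named below was lost in the settings with 0 calls.

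**Figure D1:**
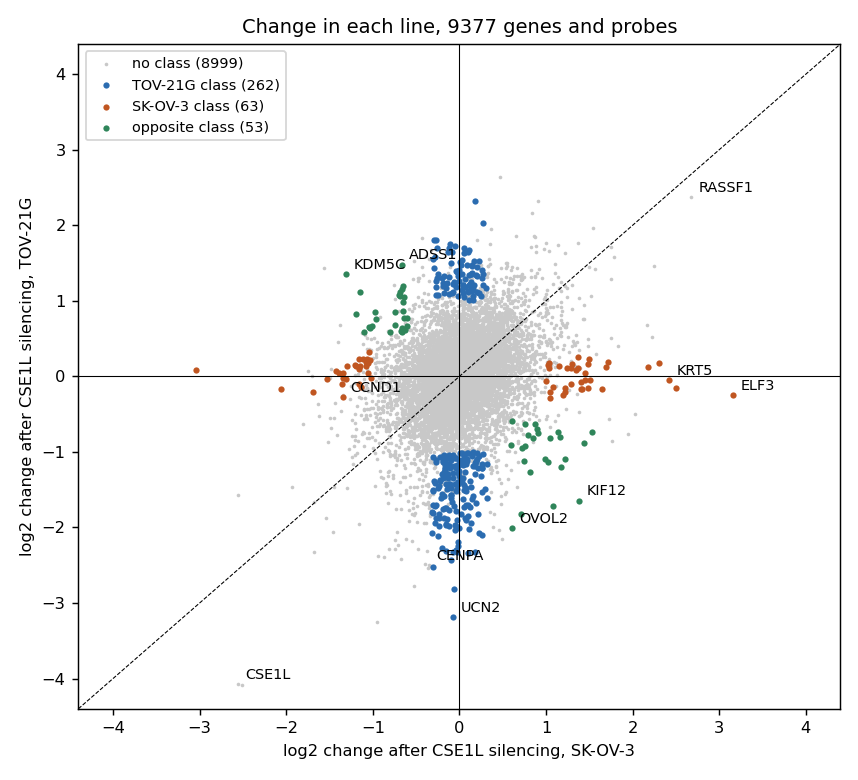
Log2 change after CSE1L silencing in SK-OV-3 (horizontal) against that in TOV-21G (vertical) for the 9377 genes and probes tested, each point 1 gene, with colours for the 3 classes and a dashed line where both changes are equal. CSE1L lies below that line, at -2.55 and -4.08, KIF12 and OVOL2 at the lower right and KDM5C at the upper left.

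Across the 9377 genes the changes in the lines, which share no arrays, correlated weakly (Pearson r = 0.281, Spearman rank correlation 0.287), as a description over genes that are not independent. The TOV-21G changes spread more widely, with an SD over genes of 0.567 against 0.425 in SK-OV-3. They also repeated better from experiment 1 to experiment 2, with r = 0.668 against 0.29. The sign of the difference was the same in both experiments for 5770 genes, or 61.5%. Of the 297 genes called in TOV-21G, 235 had an SK-OV-3 change of the same sign and 62 of the opposite sign, and 232 had a difference at an unadjusted p under 0.05. These genes were picked for a large TOV-21G change, which favours a large difference.

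The opposite class held genes at least 1.5-fold from control in each line, with opposite signs, whose silenced and control arrays did not overlap in either line. It had 25 genes that were lower in silenced TOV-21G and higher in silenced SK-OV-3 (0.267% of genes tested) and 28 the other way round (0.299%). For comparison, 538 genes (5.74%) had arrays apart on opposite sides in both lines at any size of change, and 1525 (16.3%) had them apart on the same side. In a single line they were apart in 48.9% of genes in TOV-21G and 42.3% in SK-OV-3. The median differences were -1.88 and 1.68, sizes that the rule itself selects. Among the 25, 17 were detected in both lines and 3 passed in TOV-21G. Among the 28, 21 were detected in both and 1 passed in TOV-21G.

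Of the genes that were higher in SK-OV-3 and lower in TOV-21G, TRIM47 had the lowest p for the difference. This ubiquitin ligase gene of the tripartite motif family on chromosome 17 started at nearly the same level in both lines, at 9.40 and 9.21 in SK-OV-3 control and 9.39 and 9.16 in TOV-21G control. After silencing it was 10.51 and 10.26 in SK-OV-3 and 7.67 and 7.46 in TOV-21G. All 4 silenced arrays thus lay outside the range of the 4 control arrays, above it in SK-OV-3 and below it in TOV-21G. TRIM47 fell by 1.71 in TOV-21G (limma adjusted p = 0.0185), its SK-OV-3 value was 1.08, and the difference of -2.79 (SE 0.31) had the lowest p of all genes tested, with an adjusted p of 0.165. It passed in 4 alternatives, with the values normalized by the authors, with no background correction, with detection in all 8 arrays and with limma's trend and robust options (adjusted p 0.0151 to 0.0375).

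OVOL2, a zinc finger transcription factor that keeps epithelial cells epithelial, was 9.58 and 9.57 in SK-OV-3 control and 10.44 and 9.94 after silencing. In TOV-21G it was 10.73 and 10.99 in control and 8.84 and 8.87 after silencing. The lines thus changed rank: OVOL2 was higher in TOV-21G on all control arrays and higher in SK-OV-3 on all silenced arrays. It fell by 2.01 in TOV-21G (4.02-fold, limma adjusted p = 0.0154), with a difference of -2.62 (SE 0.33, adjusted p = 0.165). ITGB4, the integrin beta 4 subunit of hemidesmosomes, was 11.57 and 12.21 in SK-OV-3 control against 12.62 and 12.78 after silencing, and 10.53 and 10.16 in TOV-21G control against 9.20 and 8.94. Its difference was -2.08 (SE 0.39), and a further ITGB4 probe gave -2.44.

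CA12, IMPA2 and PHGDH, which encode enzymes, lay in the same direction. CA12, a membrane carbonic anhydrase, was 12.63 and 12.21 in TOV-21G control and 10.89 and 10.31 after silencing, while its SK-OV-3 arrays were 11.03 and 11.63 in control and 12.20 and 11.87 after silencing. It fell by 1.82 in TOV-21G (3.54-fold, limma adjusted p = 0.0283). IMPA2, an inositol monophosphatase, was 13.32 and 13.51 in SK-OV-3 control, 14.63 and 14.54 after silencing, 13.90 and 13.64 in TOV-21G control and 12.84 and 13.10 after silencing. Its values of 1.17 and -0.80 did not pass in either line, yet the arrays of each group lay close together and the difference was -1.96 (SE 0.30). PHGDH, the first enzyme of serine synthesis, had 10.63 and 9.31 in SK-OV-3 control against 11.44 and 11.38 after silencing, and 13.57 and 13.13 in TOV-21G control against 12.79 and 12.15. Both silenced SK-OV-3 arrays lay above control, but the control arrays were themselves far apart, and the difference of -2.32 had an SE of 0.61.

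The remaining genes named in this direction were the kinesin KIF12 (1.38 in SK-OV-3 and -1.65 in TOV-21G), the terminal nucleotidyltransferase TENT5B (1.02 and -1.14) and DUSP10, a phosphatase that inactivates p38 and JNK kinases (1.14 and -0.74). KIF12 had the most negative difference of the class, -3.03 (SE 0.59). Without passing in either line, EFNA1, a ligand of Eph receptors (1.17 and -1.21), and AXIN2, a feedback inhibitor of Wnt signalling (0.88 and -0.63), belonged to the same group, and these 2 were picked out after their values were seen.

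In the other direction, lower in SK-OV-3 and higher in TOV-21G, CHPF alone passed in TOV-21G. CHPF, a polymerising factor of chondroitin sulphate, was 9.66 and 9.90 in SK-OV-3 control and 9.29 and 8.91 after silencing. The TOV-21G arrays were at 10.10 and 10.15 in control and 11.06 and 11.42 after silencing. It rose by 1.12 in TOV-21G (2.17-fold, limma adjusted p = 0.0486), with a difference of 1.80 (SE 0.33). The TOV-21G call of CHPF was lost in 13 of 19 alternatives.

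KDM5C, an X-linked demethylase of lysine 4 on histone H3, had the largest positive difference of the class, 2.66 (SE 0.42). It was 7.28 and 6.82 in SK-OV-3 control, 5.45 and 6.03 after silencing, 6.20 and 6.58 in TOV-21G control and 7.53 and 7.95 after silencing. These levels were close to background, since it was detected on neither silenced SK-OV-3 array and on 1 of 2 TOV-21G control arrays, and silenced SK-OV-3 cells were at least 1.34-fold lower than control. With no background correction or with the values normalized by the authors its difference shrank by over 1.5 times, to 1.0 with the latter.

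RIT1, a Ras-like GTPase, was 9.35 on both SK-OV-3 control arrays and 8.15 and 8.48 after silencing, against 8.37 and 7.76 in TOV-21G control and 8.58 and 8.83 after silencing. The lines thus changed rank, with SK-OV-3 higher on the control arrays and TOV-21G higher on the silenced ones. ADSS1, an adenylosuccinate synthase, was 8.98 and 9.25 against 8.66 and 8.23 in SK-OV-3 and 6.61 and 6.17 against 7.48 and 8.26 in TOV-21G, with a difference of 2.15 (SE 0.45). Only 1 TOV-21G control array detected ADSS1. CDK12, a kinase of the RNA polymerase II tail, had values of -0.74 in SK-OV-3 and 0.69 in TOV-21G. SH3PXD2A, a scaffold of podosomes, had -0.67 and 1.16, and SPRY4, an inhibitor of receptor tyrosine kinase signalling, had -1.05 and 0.65. The SK-OV-3 arrays of SPRY4, at 9.56 and 8.72 in control and 7.56 and 8.62 after silencing, nearly touched.

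**Figure D2:**
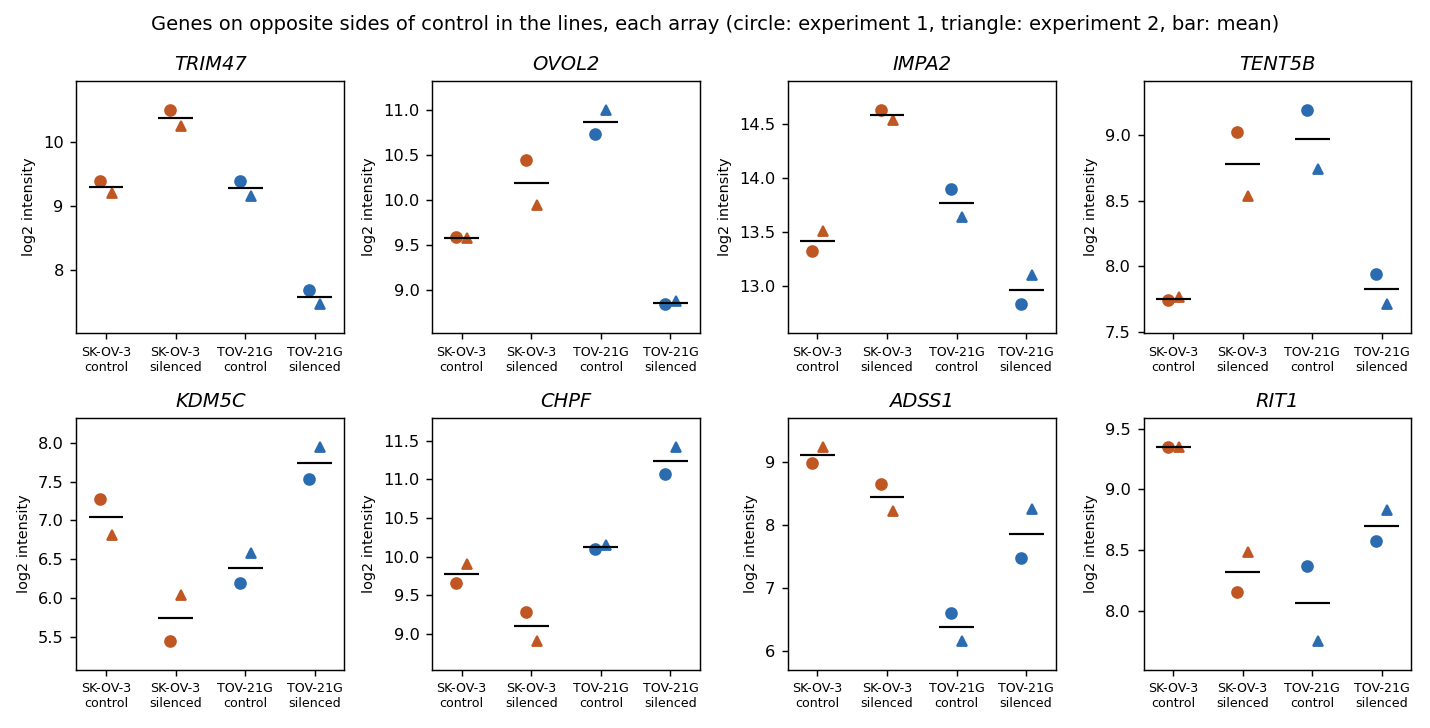
Log2 intensity on each array (vertical) for 8 genes of the opposite class by group, with circles for experiment 1, triangles for experiment 2 and bars for the mean of 2 arrays. In the upper row silenced SK-OV-3 lies above and silenced TOV-21G below its control, and in the lower row the reverse.

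The TOV-21G class was made of genes at least 2-fold from control in TOV-21G, with no overlap of arrays, that were within 0.32 log2 units of control in SK-OV-3 and had a difference at an unadjusted p under 0.05. It held 172 genes that were lower in TOV-21G (1.83% of genes tested) and 90 that were higher (0.96%). Of the 172, 130 were detected in both lines, 40 were undetected in SK-OV-3 and so had no measured response there, and 99 passed in TOV-21G. Of the 90, 60 were detected in both lines, 30 were undetected in SK-OV-3 and 43 passed in TOV-21G. Genes of cell division and DNA replication filled part of the 172 places. These were 18 of 41 tested from the list of mitosis genes and 19 of 44 from that of replication genes, against 1.83% of all genes tested. Both lists were drawn up with earlier results on these samples known.

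Mitosis and G2/M genes build the spindle, the kinetochore and the machinery that drives chromosomes apart. Of 58 listed, 41 were tested, and all 41 had a negative difference. The median log2 change was -1.49 in TOV-21G, where 23 fell (against 2.08% of all genes), and -0.10 in SK-OV-3, where 0 passed. In SK-OV-3, 3 of the 41 were lower at an unadjusted p under 0.05, against 463 of all 9377 genes tested. The median difference was -1.36 against 0.01 over all genes tested, and -1.20 and -1.58 in experiments 1 and 2. At an unadjusted p under 0.05 the difference counted 32 of 41 members, or 78.0%, against 5.83% of all genes in this direction. The median log2 intensity of the list was 11.81 and 11.88 on the SK-OV-3 control arrays, 11.53 and 11.64 on the silenced ones, 11.40 and 11.42 in TOV-21G control and 10.05 and 9.50 in silenced TOV-21G. The 2 silenced TOV-21G arrays thus stood alone below the other 6. Whether fewer cells were dividing or each held less of these RNAs cannot be told apart in bulk RNA.

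MKI67, the proliferation marker Ki-67, was 10.50 and 10.63 in SK-OV-3 control, 10.64 and 10.49 after silencing, 10.55 and 10.42 in TOV-21G control and 8.72 and 8.24 after silencing. The silenced TOV-21G arrays alone lay below 10.42. MKI67 fell by 2.01 in TOV-21G (4.02-fold, limma adjusted p = 0.0149), with an SK-OV-3 value of 0.00 and a difference of -2.0 (SE 0.33). PLK1, a kinase that drives entry into mitosis, was 10.28 and 10.35 in TOV-21G control and 8.49 and 8.01 after silencing, and 10.58 and 9.86 against 10.47 and 10.42 in SK-OV-3. CENPA, the histone that marks the centromere, was 11.37 and 11.44 against 9.21 and 8.59 in TOV-21G, and 11.63 and 12.09 against 11.47 and 11.55 in SK-OV-3. In SK-OV-3 the silenced arrays of PLK1 lay within the range of its controls, and those of CENPA just below it. PLK1 fell by 2.07 (limma adjusted p = 0.0217) and CENPA by 2.50 (0.0149) in TOV-21G, with differences of -2.29 and -2.15. A second CENPA probe gave the same difference of -2.15.

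Within the list the difference was far from even. HMMR, a spindle protein, was at 0.39 in SK-OV-3 and -1.99 in TOV-21G, and TOP2A, which encodes a topoisomerase needed to separate chromosomes, at -0.10 and -2.44. At the other end CKS2, a cyclin kinase subunit, had -0.13 and -0.15 and the securin gene PTTG1 -0.73 and -0.91. The Aurora kinase gene AURKA was lower in both lines, at -0.81 and -2.28, and the cyclin gene CCNA2 likewise, at -0.72 and -2.07. The TOV-21G changes of HMMR, TOP2A, AURKA and CCNA2 passed, and the genes of this paragraph were picked out after their values were seen.

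Promoters of such genes are known to carry a cell cycle homology region, whose core is TTTGAA, together with CCAAT boxes. Both were searched on either strand in the 150 bases before the RefSeq start site, and 33 of the 41 tested mitosis genes had a promoter in the table used. TTTGAA was present in 17 of the 33 (51.5%), against 254 of 6931 genes tested (3.66%) and 7.44% of all 27305 promoters. CCAAT was present in 28 of 33 (84.8%) against 28.0% of genes tested. The promoters below are from 5 mitosis genes that fell in TOV-21G and had a low p for the difference, and each of the 5 holds TTTGAA. These promoters are a selection that may leave out genes of lower p. They are RefSeq sequences of GRCh38.p14 read 5′ to 3′ along the gene, ending 1 base before the start: MKI67 from chr10:128126424-128126573 (minus strand), PLK1 from chr16:23678739-23678888 (plus), CENPA from chr2:26785906-26786055 (plus), GTSE1, a microtubule-binding protein gene, from chr22:46296720-46296869 (plus) and HMMR from chr5:163460482-163460631 (plus). Capitals mark TTTGAA and CCAAT on either strand, so that they also read TTCAAA and ATTGG.
MKI67: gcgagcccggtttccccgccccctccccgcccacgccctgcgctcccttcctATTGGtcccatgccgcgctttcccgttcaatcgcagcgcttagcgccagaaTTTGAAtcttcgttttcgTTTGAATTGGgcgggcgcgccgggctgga
PLK1: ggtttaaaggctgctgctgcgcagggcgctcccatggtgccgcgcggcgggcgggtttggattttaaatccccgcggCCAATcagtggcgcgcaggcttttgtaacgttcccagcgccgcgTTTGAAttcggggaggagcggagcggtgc
CENPA: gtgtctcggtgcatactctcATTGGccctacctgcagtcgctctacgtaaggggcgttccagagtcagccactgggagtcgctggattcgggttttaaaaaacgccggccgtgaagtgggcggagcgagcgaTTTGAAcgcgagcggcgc
GTSE1: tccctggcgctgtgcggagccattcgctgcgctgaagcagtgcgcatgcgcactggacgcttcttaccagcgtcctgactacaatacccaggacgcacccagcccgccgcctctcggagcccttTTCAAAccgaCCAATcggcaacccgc
HMMR: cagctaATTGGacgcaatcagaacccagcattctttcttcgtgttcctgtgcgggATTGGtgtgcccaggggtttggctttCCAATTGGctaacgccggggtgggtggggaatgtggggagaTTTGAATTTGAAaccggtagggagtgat
In MKI67 and HMMR the core occurs more than once, and in MKI67 a core and a CCAAT box on the other strand overlap. Such matches describe letters in these windows and do not show a bound factor.

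DNA replication and G1/S genes copy the genome and supply its nucleotides. Of 44 tested, 43 had a negative difference, with medians of -1.18 in TOV-21G, where 17 fell (against 2.08% of all genes), -0.14 in SK-OV-3, where 0 passed, and -1.14 for the difference. In SK-OV-3, 4 of the 44 were lower at an unadjusted p under 0.05, against 463 of all 9377 genes tested. At an unadjusted p under 0.05 the difference counted 28, or 63.6%, against 5.83% of all genes in this direction. E2F2, a transcription factor of S phase entry, was 11.62 and 11.45 in TOV-21G control and 9.56 and 9.21 after silencing, where it fell by 2.15 (4.43-fold, limma adjusted p = 0.023). In SK-OV-3 it was 10.86 and 9.93 in control and 10.85 and 10.92 after silencing, so its silenced arrays did not separate from control. RBL1, a pocket protein that binds E2F factors, was 8.72 and 8.74 in TOV-21G control and undetected after silencing, at least 4.71-fold lower (limma adjusted p = 0.0149), against an SK-OV-3 value of -0.37. POLD1, the catalytic subunit of DNA polymerase delta, was at 0.32 in SK-OV-3 and fell by 1.16 in TOV-21G, with a difference of -1.47 (SE 0.28).

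The promoters of the replication genes differed from those of the mitosis genes in these motifs. TTTGAA was present in 0 of 40, whereas an E2F site spelled TTTGGCGC or TTTCCCGC, on either strand, was present in 12 of 40 (30.0%) against 0 of 33 mitosis promoters and 2.09% of genes tested. DNA repair genes, many of which are also made in S phase, had a median difference of -0.47 over 26 members, of which 6 (23.1%) had a negative difference at an unadjusted p under 0.05, against 5.83% of all genes. Leaving out a silenced TOV-21G array put it at -0.73 (replicate 1) or -0.24 (replicate 2), and no detection filter at -0.21. EXO1, an exonuclease of mismatch repair, fell by 2.28 in TOV-21G and was at -0.48 in SK-OV-3, and its difference of -1.80 was -1.11 without TOV-21G silenced replicate 2. In 15 of 123 promoters of the genes lower in TOV-21G alone (12.2%) TTTGAA was found, against 3.66% of genes tested. It was found in 1 of 37 of the opposite class (2.70%) and 1 of 41 of the SK-OV-3 class (2.44%). The genes lower in TOV-21G alone include 18 from the mitosis list, so their share is not separate from that of the list.

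Both cell cycle lists kept their negative medians in all 19 alternatives, from -1.65 to -1.10 for mitosis and from -1.35 to -0.86 for replication. Their TOV-21G calls came to 0 without TOV-21G control replicate 1, control replicate 2 or silenced replicate 2, where limma counted 32, 38 and 31 mitosis genes at an unadjusted p under 0.05 in that line. The lists were drawn up with earlier results on these samples known, and their direction is not independent evidence.

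**Figure D3:**
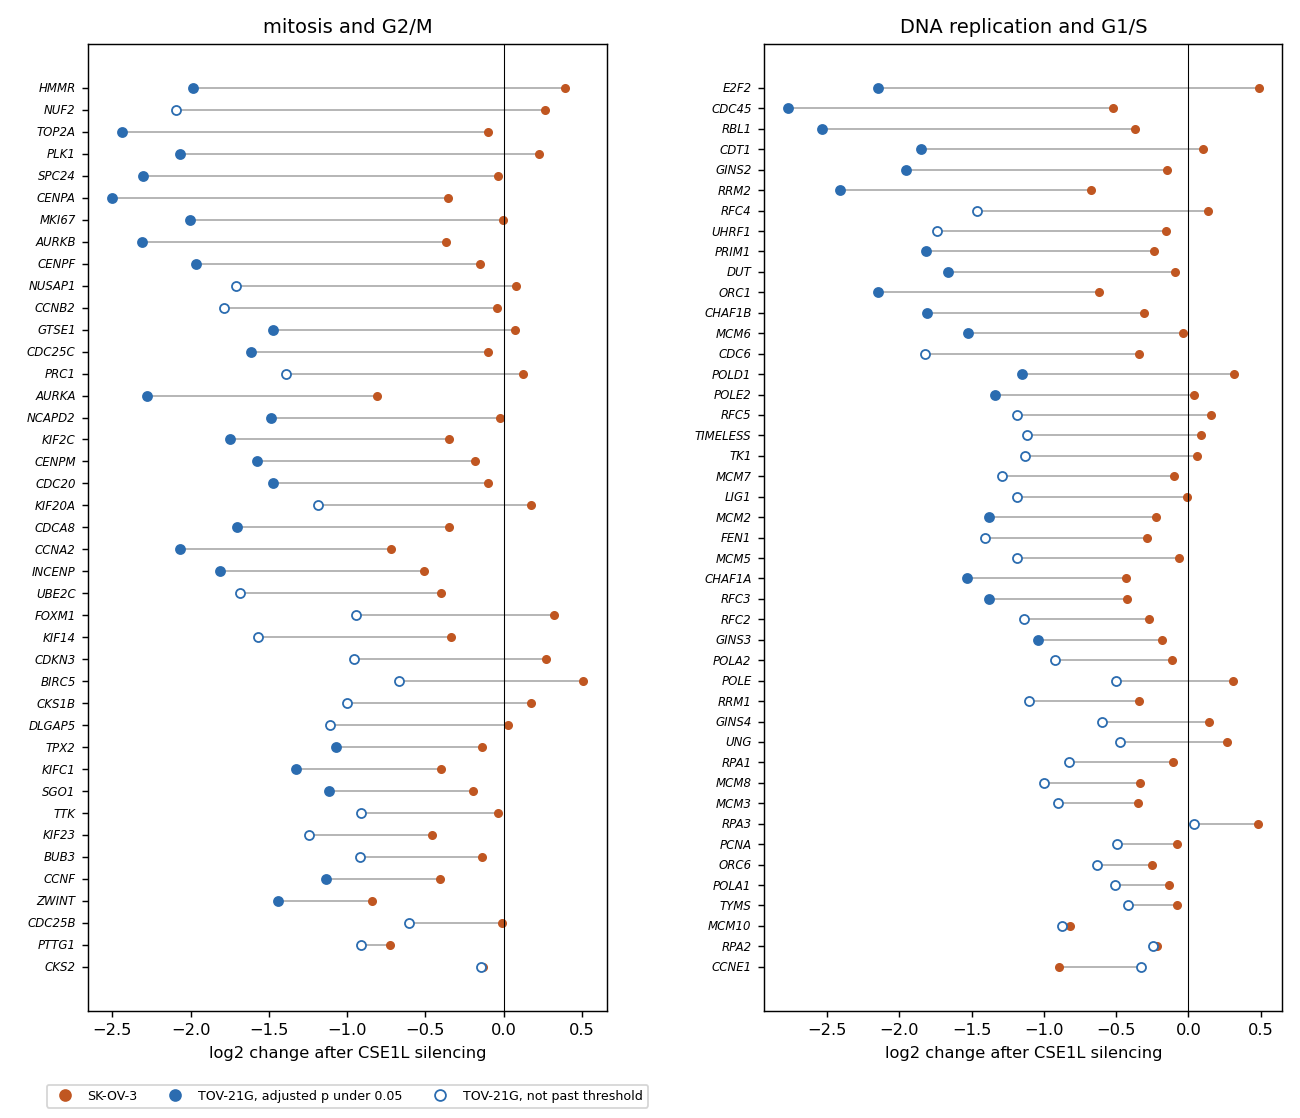
Log2 change after silencing (horizontal) for each tested mitosis gene (left) and replication gene (right), with orange points for SK-OV-3 and blue for TOV-21G, filled where limma's adjusted p was under 0.05. The TOV-21G point lies left of the SK-OV-3 point in all 41 mitosis genes and in all replication genes except CCNE1.

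The TOV-21G class also held genes from neither of the cell cycle lists. UCN2, a peptide hormone of the corticotropin-releasing family, was 8.93 and 9.12 in SK-OV-3 control and 8.92 and 8.99 after silencing. On the TOV-21G arrays it was 8.84 and 7.88 in control and undetected after silencing, at least 3.64-fold lower (limma adjusted p = 0.0149). CDA, the cytidine deaminase that also inactivates gemcitabine, was 13.02 and 12.71 against 13.04 and 12.94 in SK-OV-3. In TOV-21G it was 10.26 and 9.95 in control and 8.40 and 8.35 after silencing, and fell by 1.73 (3.31-fold, limma adjusted p = 0.0185). CDA was thus the higher gene in SK-OV-3 before silencing and the gap between the lines was wider after it.

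ZBED2, a zinc finger gene, fell by 2.27, TICRR, a regulator of replication origins that is not in the list used, by 1.94 and ARHGEF39 by 2.31 (limma adjusted p 0.0149 to 0.0158), with SK-OV-3 values of -0.20, -0.28 and -0.16.

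TRIM6, NME3 and RAB38 fell in TOV-21G but lay outside the classes, since their SK-OV-3 values exceeded 0.32, with silenced arrays above both controls, yet lay short of the fold for the opposite class. TRIM6, a further ubiquitin ligase gene of the tripartite motif family, fell by 2.03 (limma adjusted p = 0.0164), from 11.82 and 11.32 to 9.58 and 9.49, and was at 0.45 in SK-OV-3. Its difference of -2.48 passed in 3 alternatives (adjusted p 0.0151 to 0.0436). NME3, a nucleoside diphosphate kinase, fell by 1.36 in TOV-21G and was at 0.46 in SK-OV-3. RAB38, a GTPase of melanosome and lysosome-related traffic, fell by 1.56 and was at 0.53.

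Several genes had a response that only TOV-21G could show, because SK-OV-3 arrays did not detect them. CDH1, which encodes E-cadherin, was 7.57 and 8.0 in TOV-21G control and at least 2.44-fold lower after silencing (limma adjusted p = 0.0176), and it was undetected on all 4 SK-OV-3 arrays. The receptor kinase gene EPHA1 was lower by at least 2.65-fold and the secreted protein gene C6orf58 by at least 2.99-fold, on the same terms. TNF, the inflammatory cytokine, was 12.13 and 11.89 in TOV-21G control and fell to 9.47 and 9.54, a change of -2.51 (5.70-fold, limma adjusted p = 0.0257). Its SK-OV-3 values between 4.85 and 6.13 are background. In the list of NF-kB targets and inflammatory cytokines, TNF and LTB fell in TOV-21G (2 of 20, against 2.08% of all genes), 5 of 20 (25%, against 5.83%) had a negative difference at an unadjusted p under 0.05, and 9 of 20 were detected in both lines.

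Of the genes that were higher in TOV-21G, CLDND2 and BLOC1S2 belonged to the TOV-21G class. CLDND2, a gene of the claudin domain family, was 8.86 and 9.29 in TOV-21G control and rose by 1.55 to 10.52 and 10.72 (2.92-fold, limma adjusted p = 0.023), while its SK-OV-3 arrays lay between 9.62 and 9.77 in both conditions. MICA and CGB5 lay outside the classes, because their SK-OV-3 values were beyond -0.32, with silenced arrays below both controls, and short of the same fold. MICA, a stress-induced ligand of the NKG2D receptor of lymphocytes, rose by 1.10 (limma adjusted p = 0.0444), and its SK-OV-3 value was -0.41. CGB5, a chorionic gonadotropin beta gene, rose by 1.31 (adjusted p = 0.0422) against -0.47, but it has near-identical copies that the probe may not separate. The calls of MICA and CGB5 were lost in 12 and 11 of 19 alternatives. BLOC1S2, a subunit of a complex for lysosome-related organelles, rose by 1.43 (adjusted p = 0.0311) and was undetected in SK-OV-3.

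The SK-OV-3 class followed the same rule with the lines exchanged and held 35 genes that were higher in SK-OV-3 (0.373%) and 28 that were lower (0.299%). None of the 63 passed in SK-OV-3 by limma's adjusted p, and the class definition required an unadjusted p under 0.05 only for the difference. Most could not be followed in the other line: 25 of the 35 and 15 of the 28 were undetected in TOV-21G. Of the 35 and the 28, 9 and 10 were detected in both lines.

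ELF3, an epithelium-specific ETS factor, was 5.32 and 5.54 in SK-OV-3 control, below detection, and 9.41 and 7.77 after silencing, at least 3.74-fold higher. In TOV-21G it was 9.96 and 9.95 in control and 9.08 and 10.34 after silencing. Silenced SK-OV-3 cells thus moved towards the TOV-21G level, which overlapped between conditions. The SK-OV-3 change did not pass (limma adjusted p = 0.17), and the difference of -3.41 (SE 0.79) was -4.97 in experiment 1 and -1.84 in experiment 2. KRT5, a keratin of basal epithelium, was 6.81 and 7.54 in SK-OV-3 control and 9.25 and 9.96 after silencing (limma adjusted p = 0.0904), and undetected in TOV-21G. DDIT4, a stress-induced inhibitor of mTORC1, was 10.64 and 11.29 in SK-OV-3 control and 12.68 and 12.06 after silencing, and 14.18 and 14.12 against 14.35 and 13.81 in TOV-21G. HLA-DMA, which loads peptides on class II molecules, had values of 1.22 in SK-OV-3 and -0.16 in TOV-21G.

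On the lower side, CCND1, the cyclin D1 gene, was 14.37 and 14.09 in SK-OV-3 control and 12.78 and 13 after silencing. In TOV-21G it was 13.62 and 13.76 in control and 13.31 and 13.52 after silencing. The silenced arrays lay below control in each line, with log2 changes of -1.34 (limma adjusted p = 0.132) and -0.28, and the order of the lines was the reverse after silencing. SFN, the 14-3-3 sigma gene, was 11.82 and 11.59 against 10.77 and 10.54 in SK-OV-3 and 11.15 and 10.51 against 11.10 and 10.92 in TOV-21G, where its arrays overlapped. FAM174B had values of -1.04 and 0.32, and SURF2 of -1.30 and 0.13. PROCR, the endothelial protein C receptor, was at -1.08 and 0.19. SURF2 and PROCR were undetected in silenced SK-OV-3, PROCR being at least 1.56-fold lower than control.

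Many of these genes gave low signals, and the size of their difference depended on the treatment of background. With the values normalized by the authors it moved by over 1.5 times towards 0 for these genes with a negative difference: CDH1 (-0.97), EPHA1 (-0.98), C6orf58 (-1.19), UCN2 (-1.39), RBL1 (-1.04), EXO1 (-0.79), ARHGEF39 (-1.12), TICRR (-0.83), LTB (-0.67), ELF3 (-1.57) and HLA-DMA (-0.81). It did so as well for ADSS1 (1.16), SURF2 (0.44) and PROCR (0.49), and all of these moved as far with no background correction. KIF12 (-1.98), TENT5B (-1.40), RAB38 (-1.36) and KRT5 (-1.58) moved that far with the authors' values alone. Each gene of this paragraph kept the direction of its difference.

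**Figure D4:**
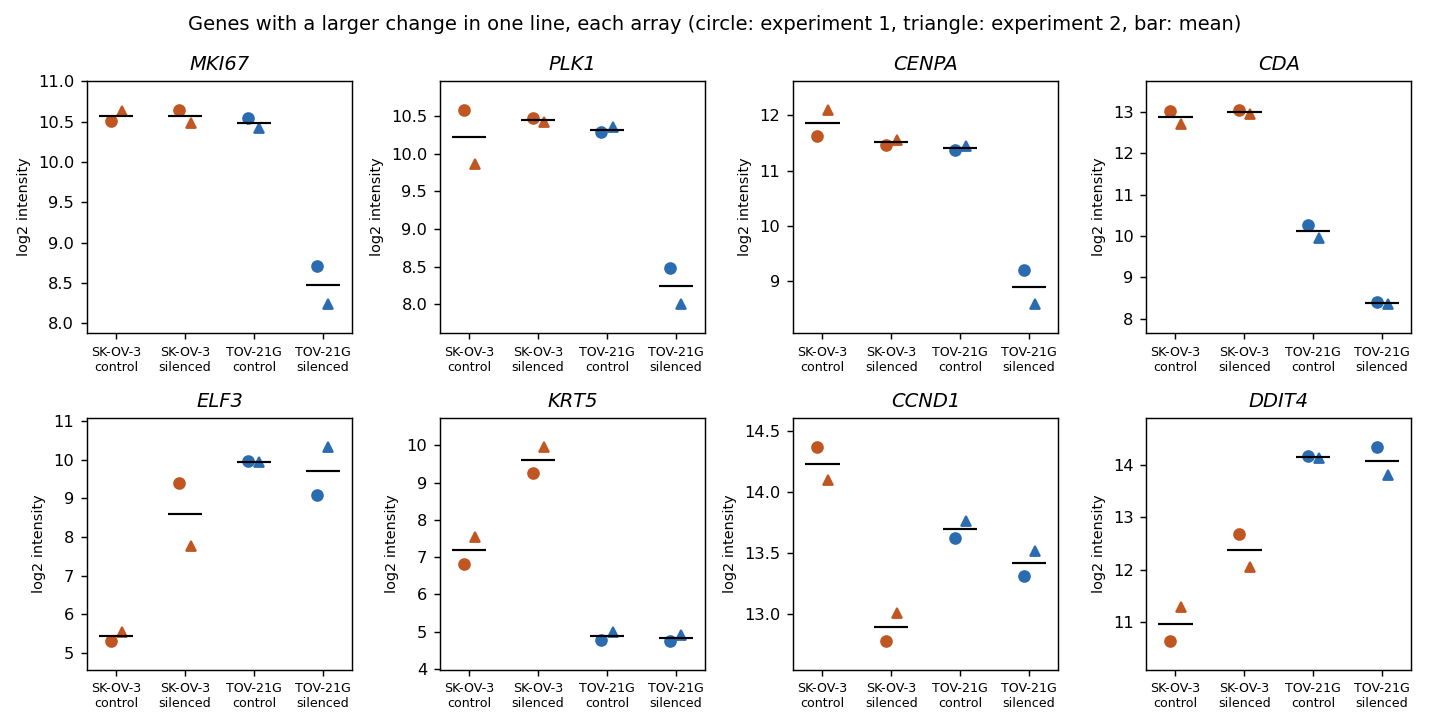
Log2 intensity on each array (vertical) for 4 genes lower in silenced TOV-21G (upper row) and 4 genes with a larger change in SK-OV-3 (lower row) by group, with circles for experiment 1, triangles for experiment 2 and bars for the mean of 2 arrays. MKI67, PLK1, CENPA and CDA drop on the silenced TOV-21G arrays, and ELF3, KRT5, CCND1 and DDIT4 move on the silenced SK-OV-3 arrays.

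Gene lists of signalling pathways gave smaller differences than the cell cycle. ERK output genes, which are transcribed when the MAP kinase ERK is active, had medians of -0.67 in SK-OV-3 and -0.25 in TOV-21G over 14 members, and 3 of 14 (21.4%, against 4.28% of all genes) had a positive difference at an unadjusted p under 0.05. ETV5, an ETS factor, was 11.50 and 11.22 in SK-OV-3 control and 9.70 and 9.76 after silencing, and 10.76 and 10.81 against 10.25 and 10.59 in TOV-21G. Its value of -1.63 in SK-OV-3 did not pass (limma adjusted p = 0.0904), and the difference was 1.27 (SE 0.31). CCND1 and SPRY4 were the other members at that level. In contrast ETV4, a related ETS factor singled out after its values were seen, had -1.68 and -1.66. The median difference of the list was 0.57, and 0.78 and 0.15 in experiments 1 and 2. It was 0.16 without SK-OV-3 control replicate 1, and 0.34 without SK-OV-3 silenced replicate 1.

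As background, SK-OV-3 is known to lack functional p53, and TOV-21G carries the wild-type gene. The p53 targets tested numbered 21, with medians of 0.09 in SK-OV-3 and 0.36 in TOV-21G, 18 above 0 in TOV-21G against 11 in SK-OV-3, and 0 called in either line by limma. Of the 21, 14 were detected in both lines. At an unadjusted p under 0.05, 4 were higher in TOV-21G, against 878 of all 9377 genes tested, and 2 lower in SK-OV-3, against 463. The difference counted 2 (9.52%), near the 10.1% of all genes. Both were positive, against 4.28% of all genes in that direction. These were SFN and TP53I3, a quinone oxidoreductase gene, which was 9.55 and 9.89 in SK-OV-3 control and 8.78 and 8.63 after silencing. The other TP53I3 probe gave an SK-OV-3 value of 0.03 and a difference of 0.26, so the probes disagree. CDKN1A, which encodes the p21 inhibitor of cyclin kinases, had 0.40 and 0.29, MDM2 -0.34 and 0.69, and the sestrin gene SESN1 -0.82 and 0.46.

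Interferon-stimulated genes had a median difference of -0.34 over 28 members, of which 3 (10.7%) had an unadjusted p under 0.05, near the 10.1% of all genes. All 3 were negative, against 5.83% of all genes in that direction. The median was -0.14 without SK-OV-3 control replicate 1, -0.55 without control replicate 2 and -0.17 with no detection filter. The regulator IRF1 fell by 1.11 in TOV-21G (limma adjusted p = 0.0401), from 9.40 and 9.14 to 8.32 and 8.0, and was 8.75 and 8.61 against 9.21 and 9.05 in SK-OV-3. Its arrays were apart on opposite sides in the lines, although the SK-OV-3 value of 0.45 lay short of the fold for the opposite class. IFIT3 and UBE2L6, both induced by interferon, were at -1.15 and -1.10 in TOV-21G and at 0.03 and 0.09 in SK-OV-3. Heat shock and chaperone genes had medians of -0.36 in SK-OV-3 and -0.05 in TOV-21G over 21 members, with 1 (4.76%, against 10.1%) at an unadjusted p under 0.05 for the difference. That was DNAJB1, a cochaperone of HSP70, at -1.02 and -0.02.

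Of 14 AP-1 and immediate early genes, 1 had a positive and 2 a negative difference at an unadjusted p under 0.05 (21.4%, against 10.1% of all genes). ZFP36, which promotes decay of cytokine mRNAs, was at -0.30 in SK-OV-3 and 1.55 in TOV-21G. The Krüppel-like factors KLF6 and KLF2 were at 1.49 and 1.29 in SK-OV-3 and at 0.49 and 0.11 in TOV-21G. KLF2 was undetected on all TOV-21G arrays and so had no measured response there. Among 10 keratins tested, KRT5 and KRT80 had negative and KRT23 positive differences at an unadjusted p under 0.05 (30.0%, against 10.1% of all genes). KRT5 was undetected in TOV-21G, and KRT23 was detected on 1 SK-OV-3 control array and on neither silenced SK-OV-3 array. Epithelial junction genes had 2 of 16 (12.5%), near that share, CDH1 and the tight junction gene OCLN, both undetected in SK-OV-3. Both differences were negative, against 5.83% of all genes in that direction. Of 30 mesenchymal and matrix genes tested, 1 had a positive and 2 a negative difference at an unadjusted p under 0.05 (10%, near the 10.1% of all genes). The positive one was TAGLN, an actin-binding protein of smooth muscle and fibroblasts. TAGLN was at -1.07 in SK-OV-3 and 0.37 in TOV-21G, and its other probe at -1.58 and 0.46. The negative ones were ACTA2, a smooth muscle actin gene (0.81 and -0.18), and PLAU (0.31 and -0.76). The differences of ZFP36 (1.06), KLF2 (-0.76), KRT23 (0.38), OCLN (-0.35), SESN1 (0.70) and UBE2L6 (-0.76) were smaller by over 1.5 times with the values normalized by the authors, as was that of ACTA2. Those of KLF6 (-0.64) and PLAU (-0.69) were smaller by as much without SK-OV-3 silenced replicate 2.

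Few members of the lists of general cell machinery had a difference at that level. For cytoplasmic ribosomal proteins, the spliceosome and the proteasome, 0 of 37, 0 of 39 and 0 of 25 tested members had a difference at an unadjusted p under 0.05, against 10.1% of all genes, and 0 passed limma's adjusted p. For cholesterol synthesis it was 0 of 12, with medians of 0.59 in SK-OV-3 and 0.45 in TOV-21G, and for the respiratory chain 1 of 38 (2.63%). Spliceosome genes had a median difference of -0.28 with 32 of 39 below 0, and -0.47 to -0.11 over the alternatives. Nuclear transport receptors, the family of CSE1L, had a median difference of -0.08 over 25 members, which kept its sign in 13 of 19 alternatives. Of these members 3 (12%) had a difference at an unadjusted p under 0.05, near the 10.1% of all genes. All 3 were positive, against 4.28% of all genes in that direction, among them KPNA6, an importin alpha. The nucleoporins, which line the pore, had a median difference of -0.30 over 24 members, and -0.17 with median scaling, which moved the median of all genes to 0.10. At an unadjusted p under 0.05 there were 2 (8.33%, against 10.1% of all genes). Both were negative, against 5.83% of all genes in that direction.

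**Figure D5:**
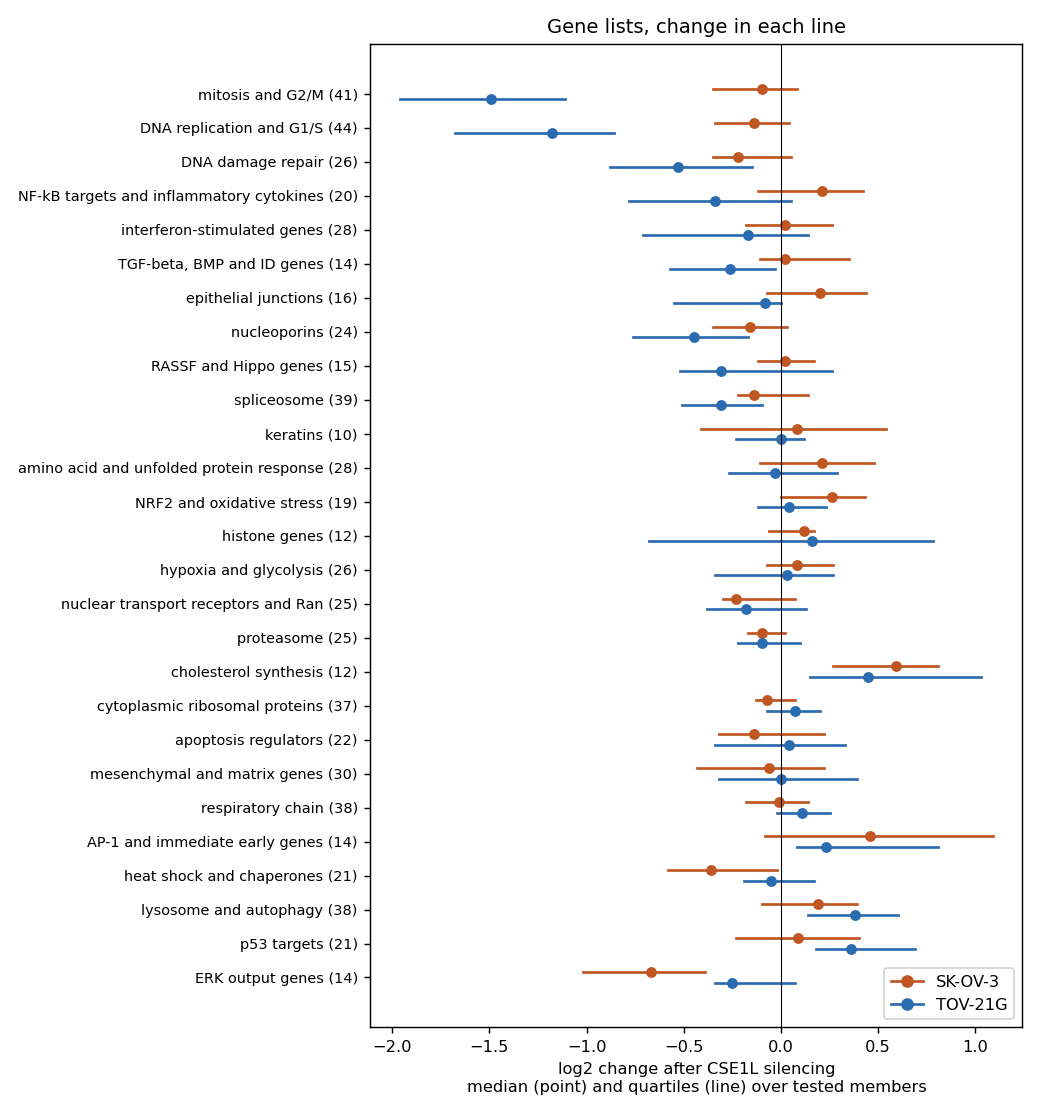
Log2 change after silencing (horizontal) for 27 gene lists (vertical, number of tested members in brackets), with points for medians and lines for quartiles over members, orange for SK-OV-3 and blue for TOV-21G, ordered by the difference. Mitosis and replication stand far to the left in TOV-21G alone, with medians of -1.49 and -1.18.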

How the data were processed

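The members and gene lists were chosen with earlier results of these data known. Per the file headers, the main deposited file gave raw bead intensity on a linear scale, each value with its detection p-value. BeadStudio 2 was the software, per the submitters' processing notes. Another deposited file gave the authors' own normalized intensity, whose method is not given in the sources used here. Raw intensity was corrected for background with limma 3.58.1 (R 4.3.3) by normexp, using detection p-values and an offset of 16, then put on the log2 scale and quantile normalized.

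Probes detected at p under 0.01 on at least 2 arrays entered, 10888 of 24531. The probe of highest mean stood for its gene, giving 8373 named genes and 1004 unnamed probes. Columns that matched no sample numbered 0. limma fitted 4 group means to the 8 arrays (residual degrees of freedom 4, prior 3.87), and p-values were adjusted by Benjamini-Hochberg over all genes tested at a threshold of 0.05. SE is that of the fitted log2 value. The number of arrays limits the precision.

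For genes detected on neither array of a group, the fold is a bound, taken from the lowest signal detected there, and the difference has no fold. Genes were named by rule: CSE1L, and the 12 of lowest p for the difference in each direction with the same sign in both experiments. Each class, and each direction of the opposite class, gave the 8 of lowest p among genes detected in both lines. Each list gave up to 3 members of lowest p. Exceptions are stated. The text gives a selection. The pipeline was tested on simulated data. Promoters were from RefSeq, and matplotlib 3.10.9 (Python 3.11.15) drew the figures.

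Alternatives were a replicate block within or across lines, leaving out each array, median scaling, the values normalized by the authors, no background correction, an offset of 50, detection in all 8 arrays, no detection filter, every probe as itself, limma with a trend and robust spread, array weights, an adjusted p threshold of 0.1 and other class thresholds.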

Additional observations from a re-analysis of the deposited data

Results flagged for a closer look

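The silenced arrays of 1 line all lay above, and those of the other line all below, their controls in 20 genes named by the rule that also met the fold of the opposite class. The difference, TOV-21G change minus SK-OV-3 change, was -3.03 for KIF12, -2.79 for TRIM47, -2.62 for OVOL2, -2.53 for CA12, -2.32 for PHGDH, -2.16 for TENT5B, -2.08 for ITGB4, -1.96 for IMPA2 and -1.88 for DUSP10. It was 2.66 for KDM5C, 2.15 for ADSS1, 1.82 for SH3PXD2A, 1.80 for CHPF, 1.70 for SPRY4, 1.68 for WDPCP, 1.67 for RIT1, 1.60 for ALS2CL, 1.43 for CDK12, 1.28 for CCDC93 and 1.24 for H3-3B. By limma's test of the difference itself 0 of the 20 passed, with adjusted p of 0.165 or above. With 2 arrays a group, arrays lay apart on opposite sides in 5.74% of all genes tested. On the values normalized by the authors, 9 genes met the rule of the class, among them KIF12, TRIM47, CA12, PHGDH, TENT5B, ITGB4 and IMPA2.

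WDPCP, a planar cell polarity gene, was detected on 1 SK-OV-3 control array and on 1 silenced TOV-21G array, and KDM5C on neither silenced SK-OV-3 array. ALS2CL was detected on neither TOV-21G control array, and ADSS1 on 1 of them. For these genes, part of the difference is signal below detection. The difference was smaller by over 1.5 times with the values normalized by the authors for WDPCP (0.51), ALS2CL (0.79) and CCDC93 (0.77), as for KIF12, TENT5B, KDM5C and ADSS1.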

How the results depend on the processing

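The count of genes passing in the difference was 0 and became 10 with the values normalized by the authors, 5 with no background correction, 1 with detection in all 8 arrays and 11 with limma's trend and robust options. TRIM47 passed in these 4, OVOL2, IMPA2 and TRIM6 in 3, and TNF, TOP2A, CA12 and E2F2 in 2. The 948 genes at an unadjusted p under 0.05 became 1476 with the replicate block within each line and 1470 with no detection filter, the latter a smaller share, of 19615 tested.

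The opposite class of 53 held 9 with the values normalized by the authors, 12 with no background correction, 28 with an offset of 50, 28 with detection in all 8 arrays, 7 with other class thresholds and 76 to 122 without 1 array. The TOV-21G class of 262 held 143, 163, 159 (detection in all 8) and 416 (other thresholds), and 193 to 395 without 1 array. The SK-OV-3 class of 63 held 18, 22, 17 and 119, and 37 to 113. Without an array, non-overlap is easier to meet by construction; the other causes were not tested. The median difference of mitosis genes was -1.65 to -1.10 when a single array was left out, the extremes coming from the silenced TOV-21G arrays. The CSE1L difference was -2.29 to -0.76.

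Of 2564 recomputed differences of named genes other than CSE1L, 2535 kept direction and side of the threshold, 21 newly passed and 8 reversed, all in marker genes. PGAP3 was -0.11 with the authors' values and -0.075 with no background correction. Without 1 array PGAP3 ranged from -0.18 to 0.57, CD68 from -0.70 to 0.056 and DCN from -1.66 to 0.50. Of 475 recomputed medians of other lists, 90 moved beyond their spread.

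Same-numbered deviations correlated at 0.126 (SK-OV-3) and 0.561 (TOV-21G) within lines and -0.183 to -0.137 between them. The numbers may thus pair arrays in TOV-21G, but the main fit took no pairing in either line. Values given per experiment, and the sign rule for named genes, match arrays by number as a description only. With the replicate block within each line 0 passed and 1476 had an unadjusted p under 0.05. It took the TOV-21G calls from 297 to 590, those of mitosis genes from 23 to 35 and those of replication genes from 17 to 28, and the SK-OV-3 calls from 1 to 0. With a replicate block shared by both lines 0 passed and 952 had an unadjusted p under 0.05, with 243 TOV-21G calls, 19 of mitosis and 19 of replication genes, and 0 in SK-OV-3. A slide block was not run because no slide was given. Signals near background, and 2 arrays a group, limit what could be called.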

Other observations

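Histone genes held a larger share of differences at an unadjusted p under 0.05 than most lists, 5 of 12 (41.7%, against 10.1% of genes tested), with 2 positive and 3 negative. Of the 12, 8 were detected in both lines. The median difference of the list, -0.09, kept its sign in 12 of 19 alternatives. H2AX, the variant phosphorylated at DNA breaks, and H3-3B, a gene of the replication-independent variant H3.3, were among the named members. H3-3B lay at -0.63 in SK-OV-3 and 0.61 in TOV-21G. By limma 0 of the 12 passed in the difference.

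An unnamed probe outside the annotation used here, ILMN_1706238, followed CSE1L closely, with -2.52 in SK-OV-3 and -4.08 in TOV-21G against -2.55 and -4.08 for CSE1L. It was picked out after its values were seen, and its target is not given in the sources used here.

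In the list of amino acid and unfolded protein response genes, SLC7A11, the cystine transporter, was 7.66 and 7.85 in TOV-21G control and 6.80 and 5.64 after silencing, and 10.51 and 10.27 against 10.50 and 10.80 in SK-OV-3. Its difference of -1.79 (SE 0.52) was -0.85 in experiment 1 and -2.74 in experiment 2, and it was -0.82 with the values normalized by the authors and -0.99 with no background correction. Of the list, 3 of 28 members (10.7%) had an unadjusted p under 0.05, near the 10.1% of all genes. All 3 were negative, against 5.83% of all genes in that direction. ID3, a target of BMP signalling that blocks basic helix-loop-helix factors, was 12.32 and 12.21 against 13.22 and 12.87 in SK-OV-3 and 15.61 and 15.38 against 15.20 and 14.86 in TOV-21G. Silenced and control arrays were apart in each line and on opposite sides, at 0.78 and -0.47, and neither value passed.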
